A study of Mus musculus with 10 samples.

Results

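The sperm-egg fusion genes described here are Izumo1, Izumo2, Izumo3, Izumo4, Spaca6, Tmem95, Dcst1 and Dcst2, 8 genes chosen by name for their role or their family. All 8 were found in the scRNA-seq matrix of 28125 genes and in the scATAC-seq matrix of 30670 genes, which share 28000 genes. Nuclei of mouse testes were profiled for RNA and accessible chromatin with 1 library per condition and assay. Wild-type testes (WT, C57BL/6J) were taken at 11, 17 and 25 days postpartum (dpp). Testes of 8-week-old mice were either Cre/+, which carry the Cre recombinase only, or Nfya-CKO, in which Stra8-Cre removes exons 5 and 6 of the floxed Nfya gene. Cre is made from the Stra8 locus, which is active in germ cells from the spermatogonial stage, so somatic cells keep the gene. How many mice went into a library is not stated, and the libraries have no replicates.

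Fertilization in mammals ends with the binding of the sperm membrane to the egg membrane and the merging of the 2 cells. IZUMO1, an immunoglobulin-like protein of the sperm head, binds the egg receptor JUNO, and IZUMO2, IZUMO3 and IZUMO4 are its relatives by sequence. SPACA6 and TMEM95 are sperm membrane proteins without which sperm bind but do not fuse. DCST1 and DCST2 are multipass membrane proteins that sperm also need. The proteins are laid down while spermatids build the acrosome, so their transcripts are known as products of late meiosis and of spermiogenesis.

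The deposited values were pooled by cell population, with 13 populations over all 5 conditions. These are undifferentiated and differentiating spermatogonia (undiff. SpG, diff. SpG), preleptotene (pL), early leptotene to zygotene (eL/L/Z), leptotene to early pachytene (L/Z/eP), mid to late pachytene (mP/lP) and diplotene (D) spermatocytes, round and elongating spermatids (RS, ES), Sertoli cells, other somatic cells, unknown cells, and spermatogonia of the library labelled Nfya-CKO (SpG Nfya-CKO). Each RNA level is a mean count of unique molecular identifiers (UMIs) per 10000 UMIs. Each scATAC value is a share of the population's accessibility signal, scaled to 1000000. The methods define promoter accessibility as coverage around the start site, but do not say that the deposited scATAC matrix holds that quantity. Neither quantity is corrected for the length of a gene, so levels are compared within a gene and not between genes. With 1 pooled value per population there is no replicate spread and no test, and folds are given as sizes only.

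The promoters bear on these data because NFYA is a subunit of NF-Y, which binds the letters CCAAT. RefSeq promoter windows of GRCm38.p6, from 250 bases before to 50 after a start site, matched 7 of the 8 genes by symbol. Izumo4 had no entry. The windows were searched on both strands for CCAAT, for the CREB family site TGACGTCA and its shorter form TGACG (which lies within it), for the RFX letters GTTNCC, for the MYB letters CAGTT and for the TATA letters TATAAA. Capitals mark every match, read 5′ to 3′ on the strand of the gene. The windows of Izumo1 and Izumo3 are shown because they alone of the 7 hold CCAAT, and those of Dcst1 and Dcst2 because these genes are transcribed away from each other from neighbouring window starts.

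Izumo1 (chr7:45621561-45621860, plus strand): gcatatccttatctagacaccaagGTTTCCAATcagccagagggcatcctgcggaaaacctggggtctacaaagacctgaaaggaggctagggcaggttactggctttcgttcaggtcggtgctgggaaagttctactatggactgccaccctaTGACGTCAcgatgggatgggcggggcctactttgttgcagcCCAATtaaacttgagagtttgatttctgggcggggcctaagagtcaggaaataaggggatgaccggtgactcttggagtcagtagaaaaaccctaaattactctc

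Izumo3 (chr4:92147172-92147471, minus strand): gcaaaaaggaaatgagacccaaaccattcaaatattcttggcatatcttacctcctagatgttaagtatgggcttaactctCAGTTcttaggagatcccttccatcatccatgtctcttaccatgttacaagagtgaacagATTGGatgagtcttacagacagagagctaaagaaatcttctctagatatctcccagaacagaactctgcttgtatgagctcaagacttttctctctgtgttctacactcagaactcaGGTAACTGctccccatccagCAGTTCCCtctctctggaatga

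Dcst1 (chr3:89365204-89365503, minus strand): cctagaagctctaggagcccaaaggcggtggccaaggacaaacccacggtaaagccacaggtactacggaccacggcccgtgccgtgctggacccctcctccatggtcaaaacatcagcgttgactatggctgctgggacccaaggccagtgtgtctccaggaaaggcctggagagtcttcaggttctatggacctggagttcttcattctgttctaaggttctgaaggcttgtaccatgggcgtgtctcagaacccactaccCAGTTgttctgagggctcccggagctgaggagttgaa

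Dcst2 (chr3:89365069-89365368, plus strand): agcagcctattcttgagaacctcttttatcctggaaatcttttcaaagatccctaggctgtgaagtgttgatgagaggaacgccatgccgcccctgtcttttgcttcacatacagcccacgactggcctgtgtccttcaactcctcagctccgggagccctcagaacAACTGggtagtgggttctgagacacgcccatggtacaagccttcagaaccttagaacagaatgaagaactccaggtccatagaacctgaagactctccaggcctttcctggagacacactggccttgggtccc

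The Izumo1 window holds CCAAT 222 and 55 bases before the start, the more distant copy overlapping a GTTNCC match, and TGACGTCA 96 bases before it. The full TGACGTCA site is in 1.79% of the 32851 promoter windows, and CCAAT is in 37.4% of them. The Izumo3 window has its CCAAT on the other strand, read as ATTGG, 109 bases before the start. TGACG is in the windows of Izumo1 and Tmem95, against 20.8% of all windows. GTTNCC is in 3 of the 7 windows (Izumo1, Izumo3 and Spaca6), against 45.3% of all. CAGTT is in 4 of the 7 (Izumo3, Tmem95, Dcst1 and Dcst2), against 44.8% of all. TATAAA is in none of the 7 and in 13.6% of all. The Izumo2 window holds none of these letters. The start used for the window lies inside the gene model for Spaca6 (chr17:17830725-17831024), 4890 bases from the model's first base, and for Dcst2, 14902 bases from it. For the other 5 it lies at most 116 bases inside. These matches describe letters and not bound sites.

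All 8 genes were placed on GRCm38, the build of the deposited data. Izumo1 (chr7:45621811-45627242) and Izumo2 (chr7:44708698-44719848) lie on chromosome 7, Izumo3 at chr4:92144318-92147225 and Izumo4 at chr10:80702015-80705382. Spaca6 (chr17:17826085-17843010) has the microRNA genes Mir99b, Mirlet7e and Mir125a inside its model and overlaps Has1 on the other strand. Tmem95 (chr11:69876054-69878171) is 93 bases from the end of Kctd11, which lies on the same strand, and Izumo4 is 195 bases from Mob3a. Dcst1 (chr3:89350219-89365253) and Dcst2 (chr3:89350417-89377643) have window starts 66 bases apart, that of Dcst2 being internal to its model, and promoter windows that share 165 bases, and their gene models overlap. Whether the counting used strand is not stated, so reads of Dcst1 and Dcst2 in the overlap cannot be told apart.

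Several measurements of the libraries touch what follows. Of 39674 distinct scRNA-seq cell barcodes, 5030 were found in at least 2 libraries, against 982 of 342825 in scATAC-seq. The 8-week-old libraries shared 3813 barcodes, which is 74% of the 5152 cells of the library labelled Nfya-CKO. Over all 5 libraries, cells whose barcode was also in another library made up 70.1% of other somatic cells, 59.7% of ES, 49.1% of diff. SpG, 35.6% of SpG Nfya-CKO, 32.5% of undiff. SpG, 23.8% of mP/lP and 8.52% of RS. Of the 783 diff. SpG from Cre/+, 448 (57.2%) had a barcode of the library labelled Nfya-CKO. In 143 of these the other cell was named SpG Nfya-CKO, with a median of 2378 UMIs in Cre/+ and 21876 in the other library. In the other 305 it was named other somatic, and there the medians were 11954 UMIs in Cre/+ and 834 in the other library. Because the matrices hold pooled values, no level below can be given without these cells. Nfya RNA was 1.11 in SpG Nfya-CKO, 0.456 in undiff. SpG and 0.667 in diff. SpG, so it was not lower where it should be deleted. A per-gene value can include transcripts that lack the deleted exons. The library is therefore named by its label, and comparisons with it depend on the label being right. Library totals ran from 30227701 to 64967271 UMIs in scRNA-seq. The level that 3 UMIs would give, taken over the total UMIs of a population, ran from 0.000624 per 10000 in mP/lP to 0.0404 in the 99 unknown cells. This limit is approximate, because the deposited levels need not be ratios of pooled counts. Izumo3 in pL, for example, was listed at 0.000431, where the limit was 0.00187.

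Population names were set beside marker genes. The summed level of Acrv1, Tssk1, Spaca1 and Catsper3 was highest in RS (11.4), that of Zbtb16, Gfra1 and Etv5 in undiff. SpG (10.6), that of Sox9, Amhr2, Wt1 and Rhox5 in Sertoli cells (26) and that of the Leydig genes Insl3, Cyp17a1 and Star in other somatic cells (213). Single markers went against these names, since Amhr2 was 10.1 in other somatic and 5.03 in Sertoli cells, Rhox5 was 0.239 and 0.222, Tssk1 was highest in ES, and Gfra1 and Etv5 were highest in SpG Nfya-CKO. The markers of differentiating spermatogonia (Kit, Stra8 and Dmrtb1) summed to 7.97 in pL and 5.19 in diff. SpG, where Dmrtb1 alone was highest, so diff. SpG is used as the name in the deposited files. ES also had markers of other cell types, with Amhr2 at 5.38, a Sertoli sum of 9.93 against 1.42 in RS and a Leydig sum of 5.53 against 0.752, though the 4 markers of elongating spermatids (Prm1, Prm2, Tnp1 and Tnp2) were highest there. The Leydig sum was also 48.2 in SpG Nfya-CKO, against 0.158 in undiff. SpG, and its part in the comparisons with that population was not tested. The share of Cre/+ cells was 27.9% (26.7 to 29.2) in mP/lP, 52.9% (51.4 to 54.4) in D and 99.6% (99 to 99.9) in ES. RS were 77% (76 to 77.9) Cre/+ cells and 22.9% (21.9 to 23.9) WT 25 dpp cells, and pL were 59.3% (57 to 61.6) WT 11 dpp and 38.2% (35.9 to 40.5) WT 17 dpp cells. Undiff. SpG were 50% (47.2 to 52.8) WT 11 dpp, 20.3% (18.1 to 22.6) WT 17 dpp, 21.7% (19.5 to 24) WT 25 dpp and 7.89% (6.48 to 9.5) Cre/+ cells, and diff. SpG were 84.5% (82 to 86.7) Cre/+ cells, with exact Clopper-Pearson 95% intervals in brackets. The library labelled Nfya-CKO had no cell named mP/lP, RS or ES, so the genes could be compared with that library only in spermatogonia.

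By RNA, 7 of the 8 genes were highest in round spermatids, and Izumo4 was highest in mid to late pachytene spermatocytes. Of the 15250 genes whose mean reached 0.05 per 10000, 18.2% were highest in RS, 17.8% in pL, 15% in ES, 11.3% in mP/lP and 3.3% in D, taking the 9 control germ cell populations. Tmem95, at most 0.0319, was the gene below that mean. The plot of RNA levels shows the shared pattern and the exception.

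**Figure D1:**
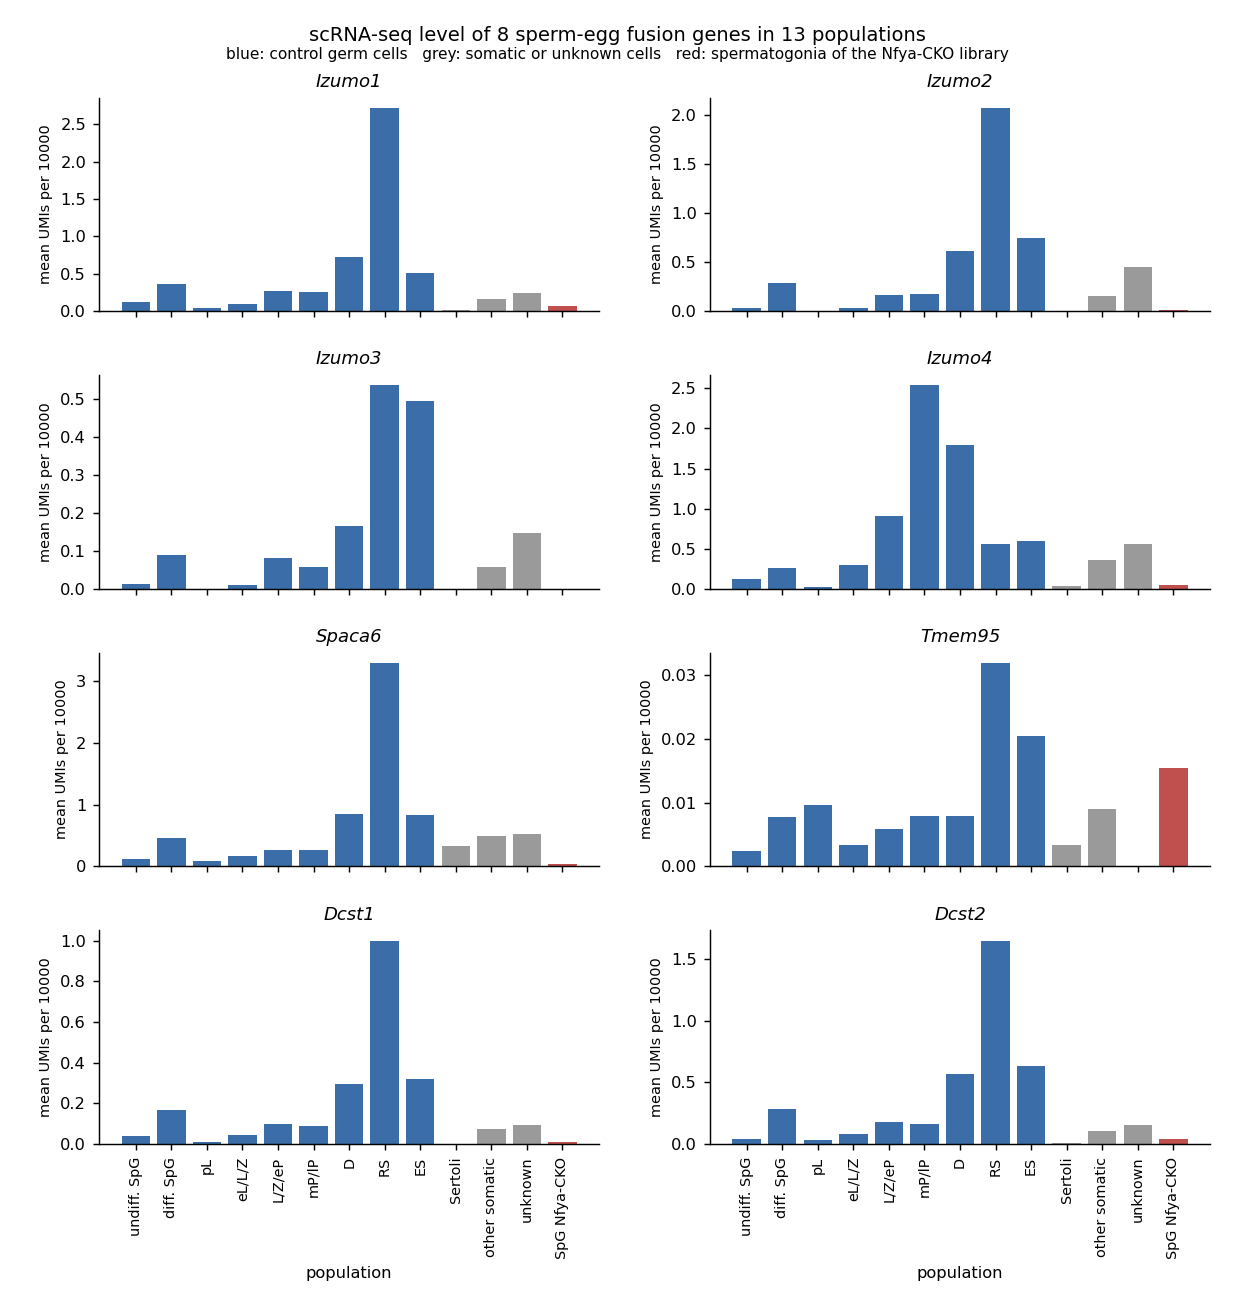
RNA level (mean UMIs per 10000, linear axes from 0, a scale of its own for each gene) of the 8 genes in 13 populations, 1 bar per pooled population with no error bar. Izumo1 reached 2.72 in RS and 0.725 in D, whereas Izumo4 reached 2.54 in mP/lP and 0.564 in RS.

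Izumo1, the sperm ligand of JUNO, had RNA levels of 0.118 in undiff. SpG, 0.362 in diff. SpG, 0.0366 in pL, 0.0975 in eL/L/Z, 0.263 in L/Z/eP, 0.25 in mP/lP, 0.725 in D, 2.72 in RS and 0.504 in ES. It had 0.00792 in Sertoli cells, 0.168 in other somatic cells, 0.239 in unknown cells and 0.0717 in SpG Nfya-CKO. RS therefore stood 3.75-fold above D, the next highest population, and ES held 18.5% of the RS level. In L/Z/eP and mP/lP the level was nearly equal, at 9.66% and 9.19% of RS.

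Izumo2 gave 0.0365 in undiff. SpG, 0.283 in diff. SpG, 0.00493 in pL, 0.0338 in eL/L/Z, 0.163 in L/Z/eP, 0.17 in mP/lP, 0.615 in D, 2.08 in RS and 0.748 in ES. Outside these it gave 0.00495 in Sertoli cells, 0.151 in other somatic cells, 0.454 in unknown cells and 0.016 in SpG Nfya-CKO. Its order among germ cells was led by RS, ES and D, with ES at 36% and D at 29.6% of RS. Izumo3, which is needed to form a normal acrosome, gave 0.0136 in undiff. SpG, 0.088 in diff. SpG, 0.000431 in pL, 0.00989 in eL/L/Z, 0.0803 in L/Z/eP, 0.0585 in mP/lP, 0.167 in D, 0.537 in RS and 0.495 in ES. It was at 0.0586 in other somatic and 0.148 in unknown cells, and listed at 0 in Sertoli cells and in SpG Nfya-CKO. There a level of about 0.000689 and 0.00307 would follow from 3 UMIs, and the pL value was also below its approximate limit of 0.00187. Izumo3 was the gene least reduced in ES among those highest in RS, at 92.3% of RS, and its neighbouring levels in RS and ES cannot be ordered without a replicate.

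Izumo4, a relative of IZUMO1 without its membrane anchor, followed another course. Its RNA levels were 0.118 in undiff. SpG, 0.256 in diff. SpG, 0.0213 in pL, 0.291 in eL/L/Z, 0.91 in L/Z/eP, 2.54 in mP/lP, 1.79 in D, 0.564 in RS and 0.598 in ES. It had 0.028 in Sertoli cells, 0.357 in other somatic cells, 0.557 in unknown cells and 0.0415 in SpG Nfya-CKO. The level was 3.13 times as high in L/Z/eP as in eL/L/Z and 2.79 times as high in mP/lP as in L/Z/eP, while RS held 22.2% of the mP/lP level. Over those 2 steps the other 7 genes had log2 ratios (of level + 0.1) of at most 0.97 and 0.04, both for Izumo2, and Izumo4 had 1.37 and 1.39.

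Spaca6, which forms a complex with IZUMO1 on sperm, had levels of 0.126 in undiff. SpG, 0.461 in diff. SpG, 0.0841 in pL, 0.166 in eL/L/Z, 0.271 in L/Z/eP, 0.268 in mP/lP, 0.846 in D, 3.29 in RS and 0.825 in ES. It had 0.323 in Sertoli cells, 0.497 in other somatic cells, 0.516 in unknown cells and 0.0355 in SpG Nfya-CKO. In Sertoli cells it had 9.8% of its RS level, Tmem95 10.5% and Izumo4 4.97%, where Izumo1, Izumo2, Izumo3, Dcst1 and Dcst2 had 0% to 0.404%. Has1, which overlaps it, was at 0.000711 in Sertoli cells. The 3 microRNA genes inside the Spaca6 model cannot be separated from it in these values.

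Tmem95 had low levels throughout, with 0.00238 in undiff. SpG, 0.00777 in diff. SpG, 0.00969 in pL, 0.00333 in eL/L/Z, 0.00592 in L/Z/eP, 0.00784 in mP/lP, 0.00795 in D, 0.0319 in RS and 0.0205 in ES. It was at 0.00334 in Sertoli cells, 0.009 in other somatic cells and 0.0154 in SpG Nfya-CKO, and listed at 0 in unknown cells. The level that 3 UMIs would give was 0.00218 in undiff. SpG and 0.0014 in RS. RS was 4.02-fold above D without a pseudocount, and ES held 64.3% of the RS level.

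Dcst1 had 0.0413 in undiff. SpG, 0.167 in diff. SpG, 0.00825 in pL, 0.0449 in eL/L/Z, 0.101 in L/Z/eP, 0.0906 in mP/lP, 0.294 in D, 1 in RS and 0.32 in ES. It had 0.00206 in Sertoli cells, 0.075 in other somatic cells, 0.0941 in unknown cells and 0.00808 in SpG Nfya-CKO. Dcst2 had 0.0414 in undiff. SpG, 0.283 in diff. SpG, 0.0297 in pL, 0.0797 in eL/L/Z, 0.177 in L/Z/eP, 0.166 in mP/lP, 0.568 in D, 1.65 in RS and 0.638 in ES. Elsewhere Dcst2 had 0.00667 in Sertoli cells, 0.103 in other somatic cells, 0.158 in unknown cells and 0.0385 in SpG Nfya-CKO. The pair ran together, with D at 29.4% and 34.4% of RS and ES at 32% and 38.6%, in that order. Their log2 levels had a Pearson r of 0.99 over the 13 populations, a description of points that share libraries, from genes whose models overlap.

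Counted by size, most of the genes were higher in D than in mP/lP and higher again in RS. The share of Cre/+ cells moved with stage along these steps, the rest being mostly WT 25 dpp, so stage cannot be told apart from library and age in them. The elongating spermatid markers Prm1, Prm2, Tnp1 and Tnp2 were also at least 2-fold higher at both steps on the scale of level + 0.1. In D these 4 markers had 37.5% to 40% of their RS level. The part of spermatid RNA in the D levels was not tested. From mP/lP to D, 5 of the 8 were at least 2-fold higher on the scale of level + 0.1 (Izumo1, Izumo2, Spaca6, Dcst1 and Dcst2), against 4.92% of all genes tested. Their log2 ratios ran from 1.05 for Dcst1 to 1.40 for Izumo2, and the median over the 8 was 1.14, against 0.08 over all genes. From D to RS, 6 were higher (the same 5 and Izumo3), against 10.6%, and Izumo4 was lower, against 3.34%. Spaca6 had the largest log2 ratio of that step (1.84) and Izumo4 the lowest (-1.51). From RS to ES, 5 were at least 2-fold lower (Izumo1, Izumo2, Spaca6, Dcst1 and Dcst2), against 10%, and none was higher, against 10.1%. Izumo1 had the lowest log2 ratio of that step (-2.22), followed by Spaca6 (-1.87). Izumo3 (log2 ratio -0.10), Izumo4 (0.07) and Tmem95 (-0.13) stayed within 2-fold. The ES values rest on 1195 cells, of which 59.7% share a barcode with another library, and all 4 Sertoli and all 3 Leydig markers were higher in ES than in RS. The part of other cell types' RNA in the RS to ES step was not tested. In the earlier meiotic steps Izumo4 alone passed 2-fold, in L/Z/eP over eL/L/Z (against 5.45% of genes) and in mP/lP over L/Z/eP (against 1.38%). L/Z/eP were 93.5% WT 25 dpp cells, and eL/L/Z were 23.7% WT 11 dpp, 32.2% WT 17 dpp and 42.6% WT 25 dpp cells. Stage cannot be told apart from library and age in these steps either. With a pseudocount of 0.01, 6 of the 8 passed 2-fold in L/Z/eP over eL/L/Z, against 13.4% of genes, where the levels without a pseudocount differed 8.13-fold for Izumo3 and 4.82-fold for Izumo2. RS exceeded Sertoli cells at least 2-fold for 7 of the 8, all but Tmem95, against 27.6%. Tmem95, under 0.1 in every population, cannot pass 2-fold on this scale in any step. Sertoli cells were 87.8% (86.6 to 88.9) WT 11 dpp and 11.7% (10.6 to 12.9) WT 17 dpp cells, and RS had no cell of either. Cell type therefore cannot be told apart from library and age here. With a pseudocount of 1 in place of 0.1, which is above most of these levels, the counts were 0 of 8 for D over mP/lP (against 0.256% of genes), 2 of 8 for RS over D (1.21%), 2 of 8 for ES under RS (1.74%) and 4 of 8 for RS over Sertoli cells (7.95%). Izumo4 then passed 2-fold neither in L/Z/eP over eL/L/Z (against 0.748%), nor in mP/lP over L/Z/eP (0.111%), nor as lower in RS than in D (0.387%).

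**Figure D2:**
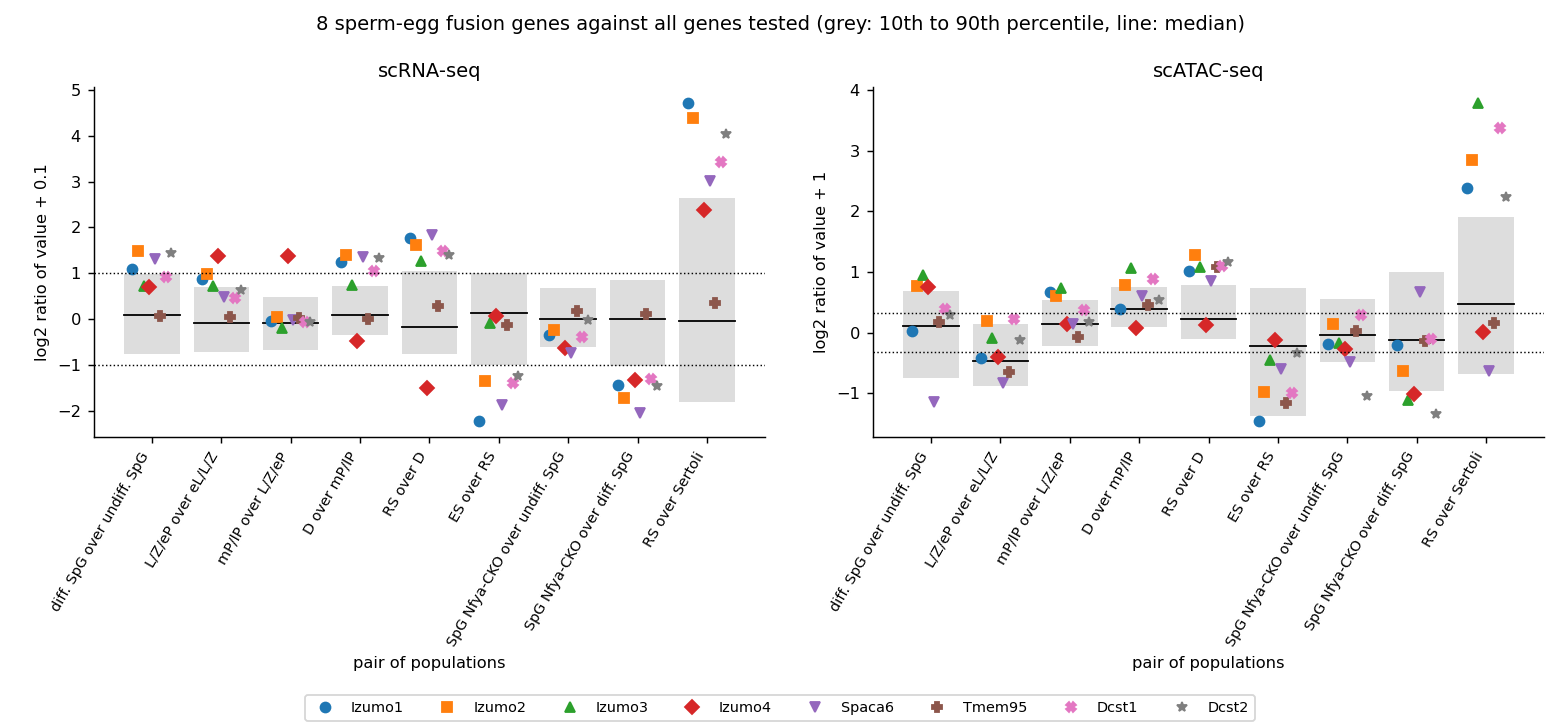
Log2 ratio of each of the 8 genes (symbols) for 9 pairs of populations, for RNA on level + 0.1 and for scATAC on value + 1, with the 10th to 90th percentile of all genes tested in grey, their median as a line, and the folds used for counting (2-fold for RNA, 25% higher or 20% lower for scATAC) dotted. Ratios with a value of 0 are left out. In RNA, 6 genes sit above the grey range for RS over D and Izumo4 sits at -1.51.

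Some RNA of these genes was counted in populations before meiosis and in somatic cells. In diff. SpG, 6 genes that peaked in RS (Izumo1, Izumo2, Izumo3, Spaca6, Dcst1 and Dcst2) had 13.3% to 17.1% of their RS level, and from undiff. to diff. SpG 4 of the 8 (Izumo1, Izumo2, Spaca6 and Dcst2) were at least 2-fold higher, against 9.57% of genes. With a pseudocount of 0.01 the count was 7 of 8, against 20.4% of genes, and with 1 it was 0 of 8, against 0.538%. Transcripts of the protamines (Prm1, Prm2) and transition proteins (Tnp1, Tnp2), which pack the DNA of late spermatids, moved the same way. All 4 were higher in diff. SpG, where Prm1 was 3.94 against 0.155 in undiff. SpG and 10.3 in RS, and the 4 had 28.9% to 38.4% of their RS level there. Other somatic cells had 6.15% to 15.1% of the RS level for the 6 genes, and 14.6% to 18.3% for the 4 spermatid transcripts. Of the other somatic cells 78.8% (77.7 to 79.8) came from the library labelled Nfya-CKO, which had no cell named RS or ES, and 5.8% (5.21 to 6.42) from Cre/+. In pL, of which 0.341% were Cre/+ cells, Prm1 was 0.00525, Prm2 was listed at 0, and the 6 genes had 0.0803% (Izumo3) to 2.55% (Spaca6). Tmem95, the other gene highest in RS, did not share this course, with 24.3% of its low RS level in diff. SpG, 28.2% in other somatic cells and 30.3% in pL, where its level of 0.00969 was above the 0.00187 that 3 UMIs would give. In L/Z/eP, by contrast, the 6 genes had 7.84% to 15% of RS and the 4 spermatid transcripts 1.31% to 3.38%. The part of spermatid RNA or of shared barcodes in the levels of D, diff. SpG, other somatic and unknown cells was not tested.

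**Figure D3:**
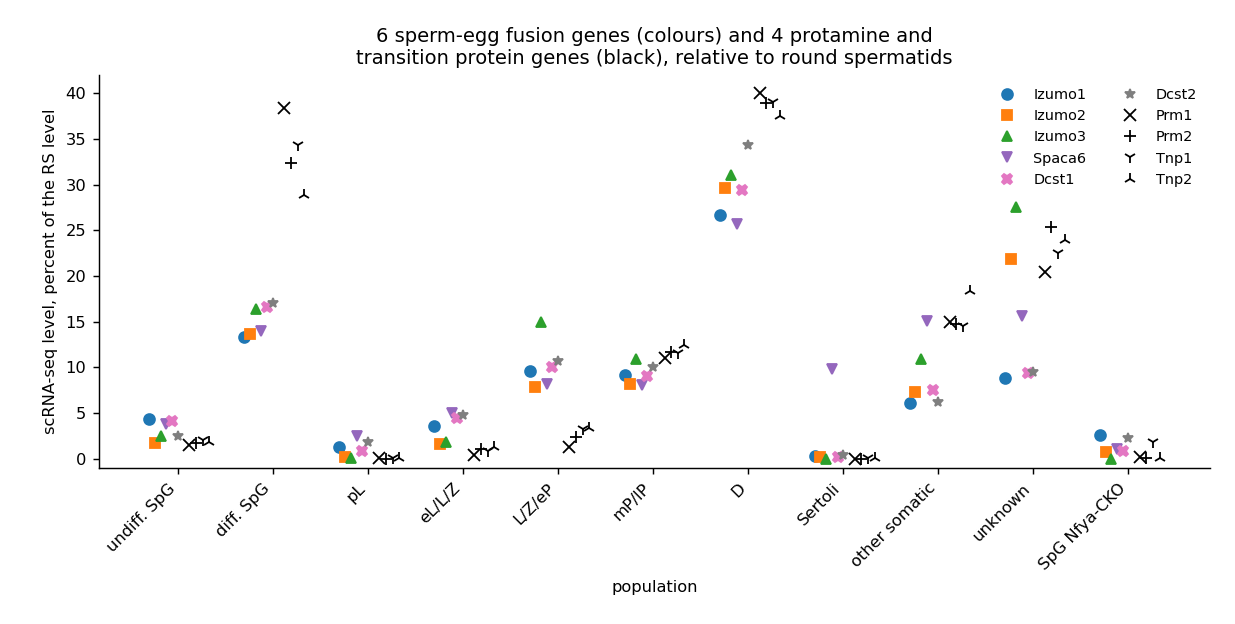
RNA level as a percent of the RS level (linear axis) for 6 genes highest in RS (colours) and for Prm1, Prm2, Tnp1 and Tnp2 (black) in 11 populations, 1 pooled value each. Tmem95, with low levels, is left out. In diff. SpG the coloured points lie at 13.3% to 17.1% and the black ones at 28.9% to 38.4%, and in L/Z/eP the coloured points lie above the black ones.

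SpG of the library labelled Nfya-CKO were compared with control spermatogonia to ask whether the genes differ in the library labelled as deleted for Nfya, where Nfya RNA was not lower. Against undiff. SpG no gene was at least 2-fold lower or higher on the scale of level + 0.1, where 3.08% and 4.09% of genes were. A level under 0.1 cannot be called 2-fold lower on this scale. In undiff. SpG this held for Izumo2, Izumo3, Tmem95, Dcst1 and Dcst2. Izumo1, Izumo4 and Spaca6, at 0.118 to 0.126 there, could be called lower only near 0. The count of lower genes was thus largely set by the scale. The log2 ratios of the 7 genes other than Izumo3 ran from -0.74 for Spaca6 to 0.17 for Tmem95, and with a pseudocount of 0.01, 4 of the 8 (Izumo4, Spaca6, Dcst1 and Izumo3, the last listed at 0 in SpG Nfya-CKO) were at least 2-fold lower, against 9.6% of genes. In values, Spaca6 was 0.0355 against 0.126, Izumo4 0.0415 against 0.118, and Izumo1 0.0717 against 0.118. Against diff. SpG, 6 of the 8 were at least 2-fold lower, all but Izumo3 and Tmem95, where 10.5% of genes were. Izumo3 (0.088 in diff. SpG, listed at 0 in SpG Nfya-CKO) and Tmem95 (0.00777 in diff. SpG) were under 0.1, so neither could be called lower. With a pseudocount of 1 none of the 8 was at least 2-fold lower, against 0.866%, and all 8 were under 1 in diff. SpG, so none could be. Prm1 was 0.0171 in SpG Nfya-CKO, which is also below both controls. Library and genotype cannot be told apart in any of these, nor age in those with undiff. SpG, which came mostly from WT mice of 11 to 25 dpp, while all SpG Nfya-CKO came from 8-week-old mice, and the part of the shared barcodes was not tested.

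In scATAC-seq, 6 of the 8 genes had their highest value of the 9 control germ cell populations in RS, as did 25.6% of the 27495 genes tested. The exceptions were Izumo4, highest in diff. SpG as were 9.32% of genes, and Spaca6, highest in undiff. SpG as were 18.6%. Izumo1 had 15.3 in undiff. SpG, 15.6 in diff. SpG, 12.6 in pL, 7.89 in eL/L/Z, 5.63 in L/Z/eP, 9.54 in mP/lP, 12.8 in D, 26.8 in RS and 9.13 in ES, and 4.34 in Sertoli cells, 2.77 in other somatic cells, 2.61 in unknown cells and 13.3 in SpG Nfya-CKO. Its lowest germ cell value was thus in L/Z/eP, where 63.8% of the signal was mitochondrial against 45.4% in eL/L/Z, and with nuclear genes alone scaled to 1000000 it was in eL/L/Z (14.4, against 15.6 in L/Z/eP). Spermatogonia held 56.9% (undiff. SpG) and 58% (diff. SpG) of the RS value, with RNA at 4.33% and 13.3% of RS.

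Izumo2, Izumo3, Dcst1 and Dcst2 had low scATAC values before diplotene. Izumo2 had 3.34 in undiff. SpG, 6.41 in diff. SpG, 3.79 in pL, 2.83 in eL/L/Z, 3.38 in L/Z/eP, 5.69 in mP/lP, 10.5 in D, 26.8 in RS and 13.1 in ES, and 2.88 in Sertoli cells, 2 in other somatic cells, 6.77 in unknown cells and 3.79 in SpG Nfya-CKO. Izumo3 had 1.12 in undiff. SpG, 3.09 in diff. SpG, 0.576 in pL, 1.65 in eL/L/Z, 1.48 in L/Z/eP, 3.12 in mP/lP, 7.6 in D, 17.3 in RS and 12.3 in ES, and 0.328 in Sertoli cells, 0.52 in other somatic cells, 4.92 in unknown cells and 0.882 in SpG Nfya-CKO. Dcst1 had 3.47 in undiff. SpG, 4.85 in diff. SpG, 4.17 in pL, 3.87 in eL/L/Z, 4.71 in L/Z/eP, 6.37 in mP/lP, 12.6 in D, 28.1 in RS and 13.6 in ES, and 1.8 in Sertoli cells, 3 in other somatic cells, 2.51 in unknown cells and 4.45 in SpG Nfya-CKO. Dcst2 had 2.39 in undiff. SpG, 3.14 in diff. SpG, 2.75 in pL, 3.05 in eL/L/Z, 2.71 in L/Z/eP, 3.21 in mP/lP, 5.1 in D, 12.6 in RS and 9.76 in ES, and it had 1.89 in Sertoli cells, 3.64 in other somatic cells and 0.633 in SpG Nfya-CKO, and was listed at 0 in unknown cells. In each of the 4, undiff. SpG, pL, eL/L/Z and L/Z/eP stayed at or under 24.1% of the RS value, and D was at 39% to 44.7%. With nuclear genes alone scaled, these were at or under 35.4% and at 45.4% to 52%. Izumo3 had the widest range over germ cells, 30.02-fold from pL to RS. Across the 9 control germ cell populations, which share libraries, the RNA level and the scATAC value of these genes had a Pearson r of 0.96 for Izumo2, 0.96 for Izumo3, 0.95 for Dcst1 and 0.91 for Dcst2. The r was 0.55 for Izumo1, 0.54 for Tmem95, 0.12 for Spaca6 and -0.59 for Izumo4, and for Izumo4 it turned to 0.28 with nuclear genes alone scaled.

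**Figure D4:**
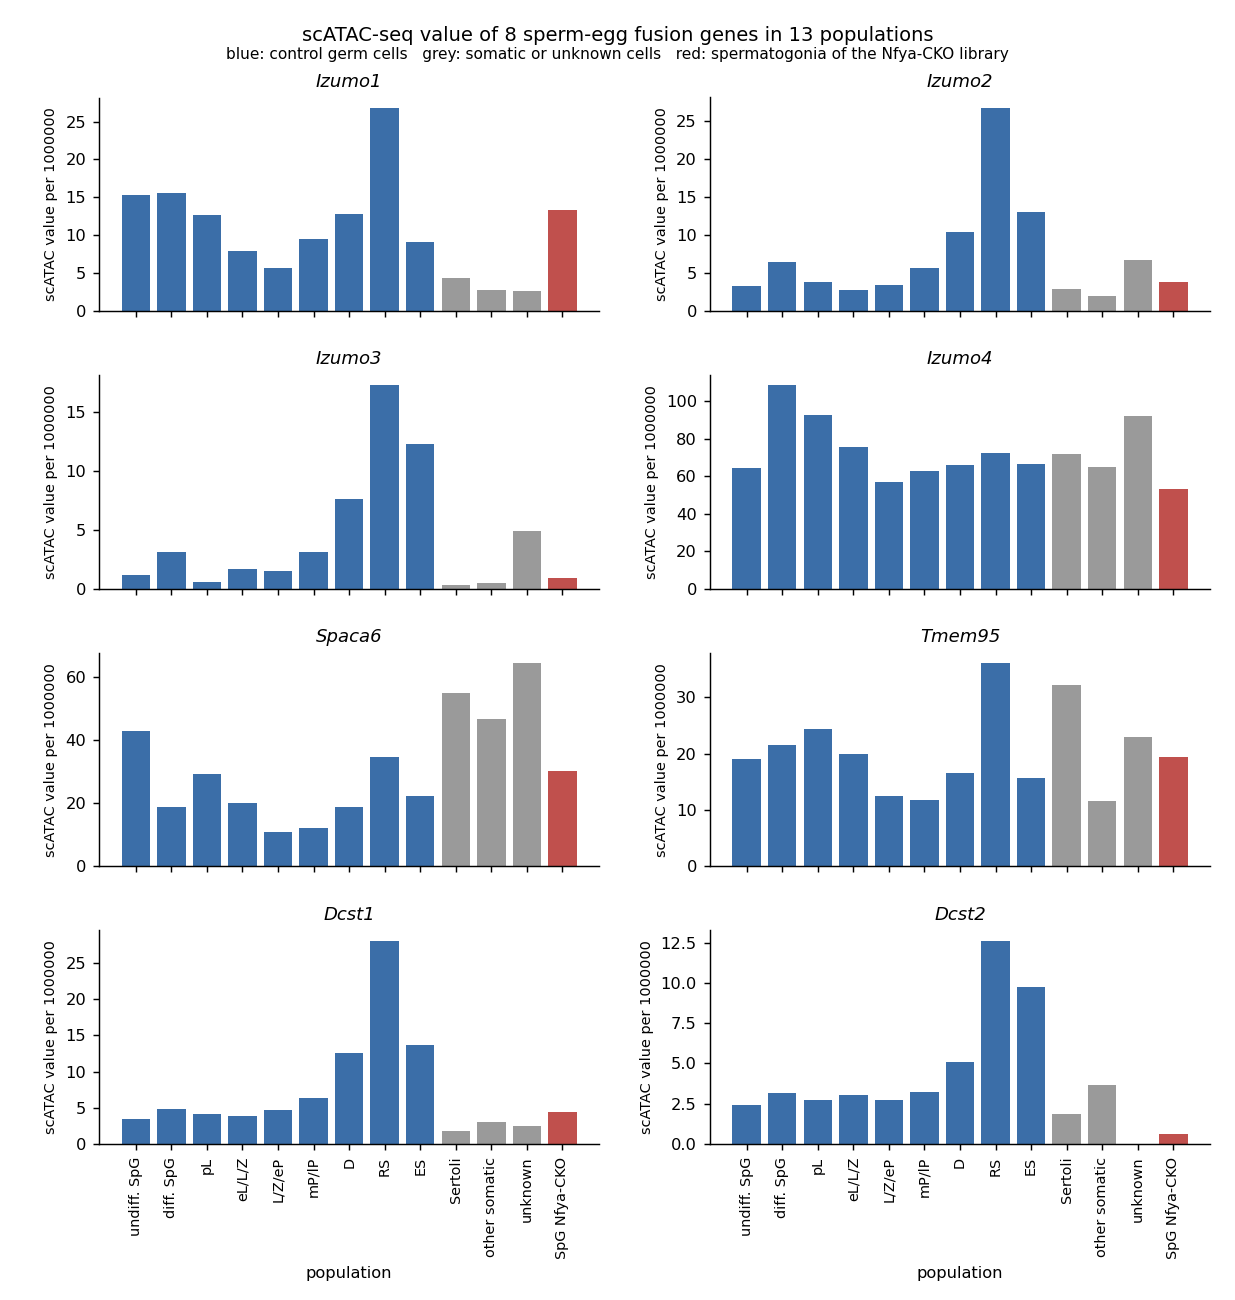
scATAC value (per 1000000, linear axes from 0, a scale of its own for each gene) of the 8 genes in 13 populations, 1 bar per pooled population with no error bar. Izumo2 reached 26.8 in RS against 3.34 in undiff. SpG, whereas Izumo4 stayed between 53 and 109 and Spaca6 was 54.8 in Sertoli cells.

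Spaca6 had 42.8 in undiff. SpG, 18.7 in diff. SpG, 29.3 in pL, 20.2 in eL/L/Z, 10.9 in L/Z/eP, 12.1 in mP/lP, 18.8 in D, 34.8 in RS and 22.5 in ES, and 54.8 in Sertoli cells, 46.7 in other somatic cells, 64.5 in unknown cells and 30.3 in SpG Nfya-CKO. Sertoli cells, the population with Spaca6 RNA at 9.8% of RS, had 1.58-fold the scATAC value of RS. Tmem95 had 19.1 in undiff. SpG, 21.6 in diff. SpG, 24.4 in pL, 20.0 in eL/L/Z, 12.4 in L/Z/eP, 11.8 in mP/lP, 16.5 in D, 36.1 in RS and 15.6 in ES, and 32.2 in Sertoli cells, 11.5 in other somatic cells, 22.9 in unknown cells and 19.4 in SpG Nfya-CKO. Its neighbour Kctd11, 93 bases away, had 20.2 in undiff. SpG, 11.1 in mP/lP, 21.4 in RS, 37.6 in Sertoli cells, 25.7 in other somatic cells and 39 in unknown cells. As a percent of its own RS value, Tmem95 was at 53% in undiff. SpG, 32.6% in mP/lP and 31.9% in other somatic cells, and Kctd11 at 94.8%, 52.1% and 120.4%. With nuclear genes alone scaled, these were 53.4%, 49.2% and 53.6% for Tmem95 and 95.4%, 78.6% and 202% for Kctd11, the mitochondrial share of the signal being 60.3% in mP/lP, 64.5% in other somatic cells and 40.2% in RS. On that scale Tmem95 was higher in Sertoli cells (65.7) than in RS (60.4).

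Izumo4 had 64.3 in undiff. SpG, 109 in diff. SpG, 92.7 in pL, 75.7 in eL/L/Z, 56.7 in L/Z/eP, 62.8 in mP/lP, 66 in D, 72.2 in RS and 66.4 in ES, and 72 in Sertoli cells, 65.2 in other somatic cells, 92.4 in unknown cells and 53 in SpG Nfya-CKO. Mob3a, whose start lies 195 bases away on the other strand, had almost the same numbers, with 64.3 in undiff. SpG, 109 in diff. SpG, 62.5 in mP/lP, 70.9 in RS and 72 in Sertoli cells. The scATAC value of Izumo4 can therefore not be told apart from that of Mob3a, whose RNA was 0.0702 in mP/lP and 0.0445 in RS.

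**Figure D5:**
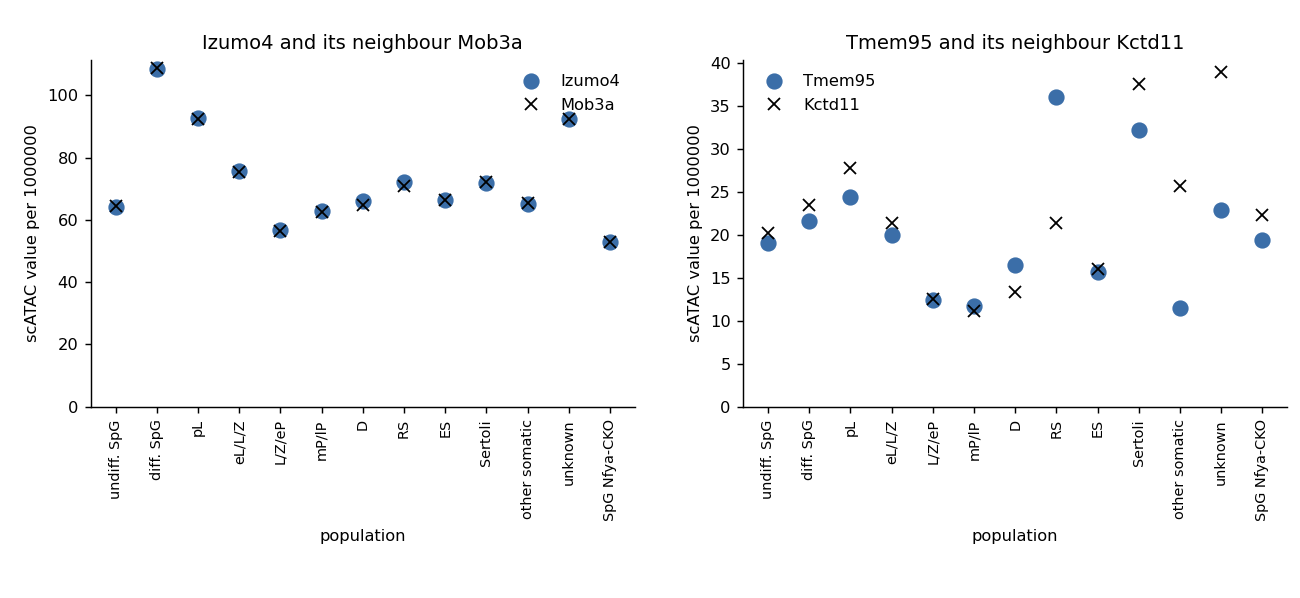
scATAC value (per 1000000, linear axes from 0) of Izumo4 with its neighbour Mob3a and of Tmem95 with its neighbour Kctd11 in 13 populations, 1 pooled value each. The Izumo4 and Mob3a points nearly coincide (109 and 109 in diff. SpG). Tmem95 is at 36.1 and Kctd11 at 21.4 in RS, at 11.5 and 25.7 in other somatic cells, and at 19.1 and 20.2 in undiff. SpG.

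Counted by size, 7 of the 8 genes were at least 25% higher in D than in mP/lP on the scale of scATAC value + 1, but so were 60.6% of all genes tested, and after centring on the median of nuclear genes 3 of the 8 were (Izumo2, Izumo3 and Dcst1), against 13.8%. The mitochondrial share of the scATAC signal was 60.3% in mP/lP and 48.6% in D. From D to RS, 7 of the 8 were at least 25% higher, all but Izumo4, against 38.2%. Their log2 ratios were 0.86 for Spaca6 to 1.28 for Izumo2, with a median over the 8 of 1.08, against 0.23 over all genes. From RS to ES the same 7 were at least 20% lower, against 44.6%. Only 124 scATAC cells were typed as ES by their RNA, against 4835 typed as RS. RS exceeded Sertoli cells for 5 of the 8 (Izumo1, Izumo2, Izumo3, Dcst1 and Dcst2), against 57.8%. After centring, the counts were 7 of 8 for RS over D (against 19.6% of genes), 5 of 8 for ES under RS, without Izumo3 and Dcst2 (32%), and 5 of 8 for RS over Sertoli cells (34.8%).

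In SpG Nfya-CKO, 2 of the 8 genes had a scATAC value at least 20% under that of undiff. SpG, against 22.5% of genes. Spaca6 was 30.3 against 42.8, and Dcst2 was 0.633 against 2.39. At 1.5-fold only Dcst2 remained, against 6.12% of genes. Its values lie near the 1 added to each, and no depth limit was computed for scATAC. Dcst1, whose window shares 165 bases with that of Dcst2, was 4.45 against 3.47 in undiff. SpG. Izumo1, with 2 CCAAT in its window, was 13.3 against 15.3 in undiff. and 15.6 in diff. SpG, a log2 ratio of -0.18 and -0.21. Izumo3, with 1 CCAAT, was 0.882 against 1.12 in undiff. and 3.09 in diff. SpG. Against diff. SpG, 4 of the 8 were at least 20% lower (Izumo2, Izumo3, Izumo4 and Dcst2), against 40.7% of genes, and Spaca6 was at least 25% higher, against 31.1%. The median log2 ratio against undiff. SpG was -0.18 over the 8 genes and -0.05 over all genes.

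Other genes of fertilization were set beside the 8. The list of other sperm factors of fusion held 8 genes, all in the matrix, with 6 highest in RS and 2 in ES, against 18.2% and 15% of all genes. From D to RS 6 of these were at least 2-fold higher, against 10.6% of all genes. Llcfc1, another sperm protein required for fusion, was 1.02 in D, 2.68 in RS and 2.76 in ES. Spaca1, an acrosomal membrane protein, was 2.19 in RS and 0.874 in ES, 1700029I15Rik 1.34 and 0.569, and Eqtn, the acrosomal protein equatorin, 1.23 and 0.33. Of 12 genes of zona binding and the acrosome, 9 were highest in RS, 2 in D and 1 in mP/lP, against 18.2%, 3.3% and 11.3% of all genes. Adam2, part of the fertilin complex, was highest in mP/lP (8.26, with 2.16 in RS), the same population as Izumo4. Adam3 was 5.16 in D, Acrv1 7.19 in RS and Spaca3 3.16 in RS. Of 10 symbols listed for the folding and transport of sperm membrane proteins 9 were matched in the matrix, with 4 highest in mP/lP, 3 in ES, 1 in RS and 1 in pL, against 11.3%, 15%, 18.2% and 17.8% of all genes. The chaperone gene Clgn (calmegin) was 9.12 in mP/lP and 4.22 in RS, Hspa2 7.43 and 2.65, Tex101 5.45 and 1.78, and Ace 0.226 and 1.93 with 5.73 in ES. On the egg side, Izumo1r, which encodes JUNO, was at most 0.0213 in any population, and that maximum was in unknown cells, for which 3 UMIs would give about 0.0404, and SpG Nfya-CKO had 0.0148. Astl was at most 0.0082, while Cd9 and Cd81, membrane proteins of many cells, reached 1.72 in unknown and 9.73 in other somatic cells.

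The genes with the most similar RNA pattern were ranked by Pearson r of log2(level + 0.1) over the 13 populations among the 10858 genes with a highest level of at least 0.5, less the gene itself. Izumo1 was most like Nol4, Catsper4 and 4930412F09Rik (r = 0.994 to 0.996), Izumo2 like Tbata, Txndc8 and D7Ertd443e (r = 0.996 to 0.999) and Izumo3 like Gm6657, Cylc2 and 1700017L05Rik (r = 0.99). Izumo4 was most like Gm5878, pi-IG-Gm5878 and Gm30132 (r = 0.99). Dcst1 was most like 4930474N05Rik, Tex24 and Fam124b, and Dcst2 like 1700080O16Rik, Mroh7 and 1700011L22Rik (r = 0.992 to 0.997 over both). Spaca6 was most like Fam155a, Mad2l1bp and Tmem81 (r = 0.95 to 0.96), and Tmem95 like Gm46440, Hecw1 and Tmem151a (r = 0.89 to 0.90). Tmem95 itself did not reach 0.5, and all its levels lie under the pseudocount of 0.1. These names depend on the measure, since by Spearman's rho at most 1 of each 3 stayed.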

How the data were processed

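Nuclei of testes were profiled with scRNA-seq and scATAC-seq, with 1 library for each of 5 conditions and assay, 10 samples in all. The authors aligned RNA reads with STAR 2.7.10b and fragments with BWA 0.7.12 to mm10, and filtered and clustered cells with Seurat 5.2.1 and ArchR 1.0.3, per the labels and the methods. Cells with under 500 genes, 5% or more mitochondrial UMIs, under 1000 fragments or a TSS score under 4 were left out, and doublets were removed by the authors.

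The authors deposited a matrix per assay on a natural log scale, found from the values to be the log of 1 plus a mean that sums to 10000 per population. The methods give log normalization of each cell's UMIs with a factor of 10000, pseudo-bulks of each cell type scaled per 1000000 reads or fragments, and promoter accessibility as the mean coverage within 200 bases of a start site on either side. They do not say which of these steps gave the deposited matrices, whose scATAC columns also include 13 mitochondrial genes. Per cell, the authors deposited counts of UMIs, genes and fragments, the percent of mitochondrial UMIs and TSS enrichment, a ratio. The exponential minus 1 was taken with Python 3.11.15, numpy 2.4.6 and pandas 2.3.3, and scATAC values were multiplied to sum to 1000000. Ratios used a pseudocount of 0.1 (RNA) or 1 (scATAC). Genes were counted past 2-fold (RNA, mean of at least 0.05) or 25% higher or 20% lower (scATAC, nuclear genes with a mean of at least 1). The counting was run on simulated data, with changes set only in genes above a minimum level in D. It did not cover the lower levels that many of these genes have before D. No p-value was computed. Shares of cells with 95% exact Clopper-Pearson intervals were computed with scipy 1.17.1, and intervals and the 3-UMI limit cover counting error only. That limit was computed from the total UMIs of a population and is approximate. Alternatives were pseudocounts, folds, minimum levels, scaling to nuclear genes, centring, the likeness measure and limits on cells. 21 deposited columns of per-cell values or labels were not used.

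The 8 genes, the other lists and the pairs of populations were chosen with earlier results of these data known. Named genes were the 8, the 3 most alike for each, at most 4 per other list with the highest level in any control germ cell population (egg-side genes in any population), Nfya, and neighbours within 2000 bases, the last added after the values were seen. A planned comparison of the proteins was not made.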

Additional observations from a re-analysis of the deposited data

How the results depend on the processing

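No paired analysis was possible because each condition is 1 library and the matrices pool the libraries, and for the same reason no replicate could be left out. The pseudocount decides many counts, since most levels lie under 1. With 0.01 for RNA, the counts of genes at least 2-fold apart were 3113 (from 1459) higher for diff. SpG over undiff. SpG, 2041 (from 831) higher for L/Z/eP over eL/L/Z, 496 (from 210) higher for mP/lP over L/Z/eP, 2176 (from 750) higher for D over mP/lP, 1537 (from 510) lower for RS over D, 1464 (from 469) lower for SpG Nfya-CKO over undiff. SpG and 2844 (from 1600) lower for SpG Nfya-CKO over diff. SpG, and those of the 8 fusion genes were 7 (from 4) higher for diff. SpG over undiff. SpG, 6 (from 1) higher for L/Z/eP over eL/L/Z and 4 (from 0) lower for SpG Nfya-CKO over undiff. SpG. With 1, they were 82 (from 1459) higher for diff. SpG over undiff. SpG, 114 (from 831) higher for L/Z/eP over eL/L/Z, 17 (from 210) higher for mP/lP over L/Z/eP, 39 (from 750) higher for D over mP/lP, 184 (from 1614) higher for RS over D, 59 (from 510) lower for RS over D, 266 (from 1531) lower for ES over RS, 45 (from 469) lower for SpG Nfya-CKO over undiff. SpG, 132 (from 1600) lower for SpG Nfya-CKO over diff. SpG and 1212 (from 4214) higher for RS over Sertoli, and for the fusion genes 0 (from 4) higher for diff. SpG over undiff. SpG, 0 (from 1) higher for L/Z/eP over eL/L/Z, 0 (from 1) higher for mP/lP over L/Z/eP, 0 (from 5) higher for D over mP/lP, 2 (from 6) higher for RS over D, 0 (from 1) lower for RS over D, 2 (from 5) lower for ES over RS, 0 (from 6) lower for SpG Nfya-CKO over diff. SpG and 4 (from 7) higher for RS over Sertoli. Scaling RNA to nuclear genes and dropping the minimum level moved no RNA count by over 1.5 times.

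For scATAC, a fold of 1.5 gave counts of genes of 6063 (from 16652) higher for D over mP/lP, 4891 (from 10505) higher for RS over D, 1684 (from 6193) lower for SpG Nfya-CKO over undiff. SpG and 7374 (from 11187) lower for SpG Nfya-CKO over diff. SpG, and for the fusion genes 4 (from 7) higher for D over mP/lP and 1 (from 2) lower for SpG Nfya-CKO over undiff. SpG. A fold of 2 gave 723 (from 16652) higher for D over mP/lP, 1416 (from 10505) higher for RS over D, 4819 (from 12260) lower for ES over RS, 133 (from 6193) lower for SpG Nfya-CKO over undiff. SpG, 2371 (from 11187) lower for SpG Nfya-CKO over diff. SpG, 2771 (from 8542) higher for SpG Nfya-CKO over diff. SpG and 8150 (from 15903) higher for RS over Sertoli, and for the fusion genes 1 (from 7) higher for D over mP/lP, 2 (from 7) lower for ES over RS, 1 (from 2) lower for SpG Nfya-CKO over undiff. SpG and 0 (from 1) higher for SpG Nfya-CKO over diff. SpG. Scaling to nuclear genes gave 6131 (from 16652) higher for D over mP/lP, 6622 (from 10505) higher for RS over D and 3880 (from 6193) lower for SpG Nfya-CKO over undiff. SpG, and for the fusion genes 3 (from 7) higher for D over mP/lP. Centring gave 3791 (from 16652) higher for D over mP/lP, 5385 (from 10505) higher for RS over D and 9580 (from 15903) higher for RS over Sertoli, and for the fusion genes 3 (from 7) higher for D over mP/lP. A pseudocount of 5 gave 9681 (from 16652) higher for D over mP/lP, 6361 (from 10505) higher for RS over D and 4071 (from 6193) lower for SpG Nfya-CKO over undiff. SpG. Of the scATAC ratios past the fold used for counting, those of Izumo1 and Izumo4 for L/Z/eP over eL/L/Z turned higher on nuclear scaling (log2 ratio 0.10 and 0.18), and on centring (0.0037 and 0.016). Smaller differences turned too. On nuclear scaling Izumo3 was 4.09 in L/Z/eP against 3.01 in eL/L/Z, and Dcst2 7.47 against 5.58. Izumo4 became lower in D than in mP/lP (129 against 158) and lower in RS than in D (121 against 129). Izumo1 became lower in diff. SpG than in undiff. SpG (23.9 against 25.7). The Pearson r of RNA and scATAC of Izumo4 turned from -0.59 to 0.28 on nuclear scaling, and that of Izumo1 moved from 0.55 to 0.71. The number of genes highest in RS was the same when nuclear genes alone were scaled, 7 for RNA and 6 for scATAC.

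Of the 3 genes most like each fusion gene, Spearman's rho kept 0 for Izumo4, Dcst1, Dcst2 and 1 for Izumo1, Izumo2, Izumo3, Spaca6, Tmem95, and the 9 control germ cell populations kept 0 for Izumo4, Spaca6, Tmem95, Dcst1, Dcst2 and 1 for Izumo1, Izumo3. Limiting cells to at least 1000 genes moved the Cre/+ share of RS from 77% to 72.9% and the share of other somatic cells from the library labelled Nfya-CKO from 78.8% to 69%, and 4 other shares and 1 share of scATAC cells stayed within their intervals.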
